A study of Danio rerio with 2 samples.

Results

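Matrix metalloproteinases (MMPs), the ADAM and ADAMTS proteases and the tissue inhibitors of metalloproteinases (TIMPs) were followed in single cells of the zebrafish larval caudal fin fold. All genes of the deposited gene list whose name begins with mmp, timp or adam were taken, which gave 24 of 15411 genes: 9 MMP, 4 TIMP, 6 ADAM and 5 ADAMTS genes. The cut group was the caudal fin fold of larvae amputated with a scalpel at 3 dpf and collected at 24 hpA, when the blastema forms, and the uncut group was the intact fin fold of larvae collected at the same time. The methods of the study name the AB strain and several transgenic lines without saying which gave these libraries, and the labels give no strain. About 150 fin folds of each group were pooled and dissociated into 1 Chromium 3' library, so that no test between the groups was possible and the intervals given here (95%) cover counting error only. Each count is a captured transcript with its own molecular identifier (UMI).

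MMPs are zinc-dependent enzymes that cut collagens and other matrix proteins, and most are made as inactive precursors. TIMPs bind the active site of MMPs and block it. ADAMs are membrane-bound relatives that release, or shed, the outer part of cell surface proteins, and ADAMTS enzymes are secreted and cut proteoglycans and procollagens. In fin regeneration the wound epidermis and the mesenchyme below it exchange signals across a matrix that these enzymes can remodel.

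The cut library held 762 cells with 7033569 UMIs and a median of 7212 per cell, and the uncut library 878 cells with 10458222 UMIs and a median of 10476.5. The libraries shared 0 cell barcodes. Clustering without the 24 genes gave 21 clusters, of which 18 could be called by marker genes. The groups used below were apical epithelial cap-like cells (28 cut and 90 uncut), basal epidermis-like cells (60 and 69), superficial epidermis-like cells (411 and 290), mesenchyme-like cells (91 and 257) and myeloid-like cells (36 and 11). Cap-like cells had 11 of 12 cap markers raised, fgf8a and apoeb among their 10 leading genes, but also the basal epidermis markers frem2a and fras1 among these. Of 12 basal epidermis markers 7 were raised in cap-like cells too. One mesenchyme-like cluster (40 cut and 108 uncut cells, led by ucp1 and tat) and one basal epidermis-like cluster (42 and 26 cells) were shallow, with median depths of 0.336 and 0.284 of their own library's median. This shallow basal epidermis-like cluster had 3 of 12 basal epidermis markers raised, and the deeper one 10.

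The 24 genes had 8268 UMIs in all, 2923 in cut and 5345 in uncut cells, which was 0.0416% and 0.0511% of all UMIs. In all, 11 genes (mmp2, adam10a, timp2a, mmp14a, mmp9, adam17a, mmp14b, timp2b, mmp13a, mmp30 and adam8a) had at least 100 UMIs, 9 had 20 to 99, and adam10b, mmp17b, mmp21 and timp4.2 had fewer than 20, timp4.2 with 0. The levels below are UMIs of the gene per 1000000 UMIs of the cells named (UPM). Summed MMP transcripts reached 3255 UPM (3020 to 3503) in cut cap-like cells, against 1018 (955 to 1084) in uncut cap-like cells. Cut mesenchyme-like cells had an MMP sum of 920 UPM (836 to 1009) and uncut ones of 622 (590 to 656), and in superficial epidermis-like cells it was 22.3 and 18.4 UPM with overlapping intervals. In basal epidermis-like cells it was 467 UPM in both libraries. In myeloid-like cells it was lower in the cut library, with 251 UPM (187 to 330) in cut and 498 (362 to 669) in uncut cells. That difference rests on 1 uncut cell, which held 31 mmp13a and 9 mmp9 UMIs of the 44 MMP UMIs in uncut myeloid-like cells. Summed TIMP transcripts were 608 UPM (509 to 721) in cut cap-like cells, against 218 (189 to 249) in uncut ones. Cut mesenchyme-like cells had 501 UPM (440 to 568) of TIMP transcripts, against 232 (213 to 253) in uncut ones. The ADAM sum differed less, with 425 UPM (343 to 521) in cut cap-like cells, against 315 (281 to 353) in uncut ones. ADAMTS transcripts were few, with 34.9 UPM (20.3 to 55.9) in cut mesenchyme-like cells, against 32.6 (25.5 to 41.0) in uncut ones.

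**Figure D1:**
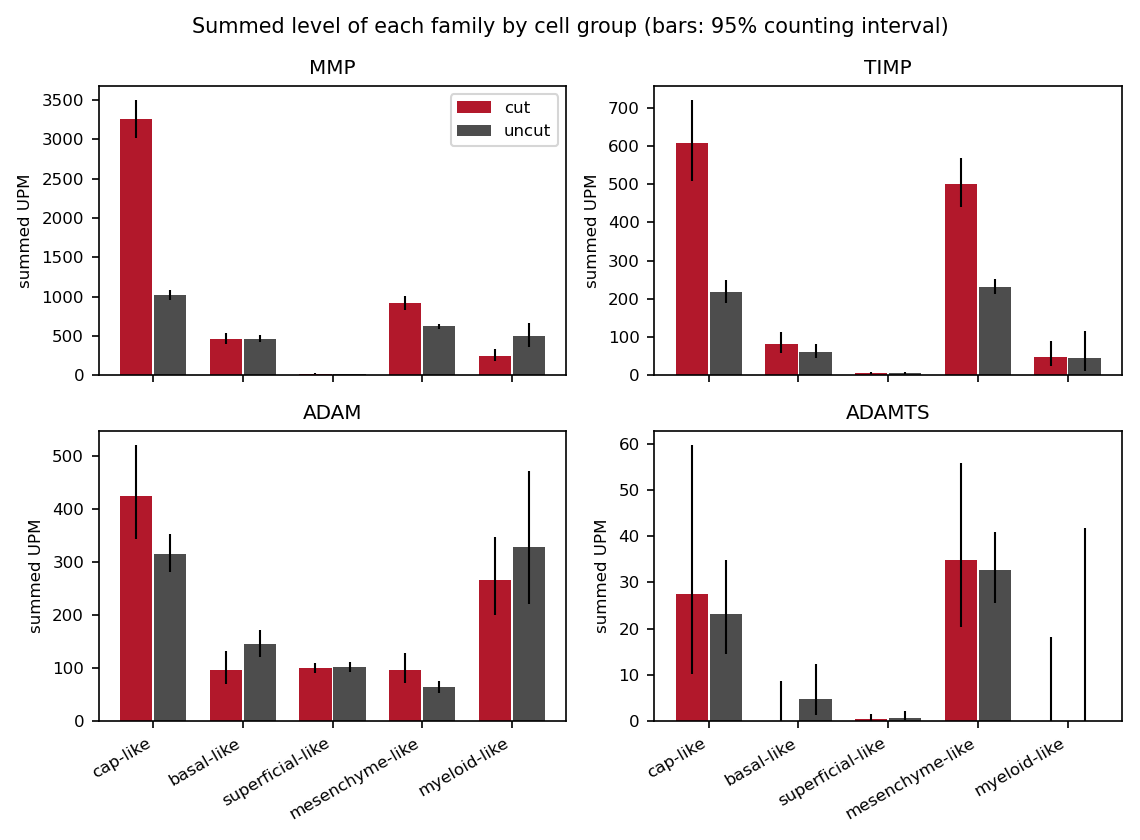
Summed level (UPM, vertical axis from 0) of the MMP, TIMP, ADAM and ADAMTS genes in 5 cell groups, cut (red) left of uncut (grey), with 95% counting intervals. The MMP and TIMP sums are higher in the cut library in cap-like and mesenchyme-like cells, and the MMP sum is lower in it in myeloid-like cells, while the ADAM intervals of cap-like cells overlap. The uncut myeloid-like MMP sum of 44 UMIs rests mostly on 1 cell, with 31 mmp13a and 9 mmp9 UMIs.

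**Figure D2:**
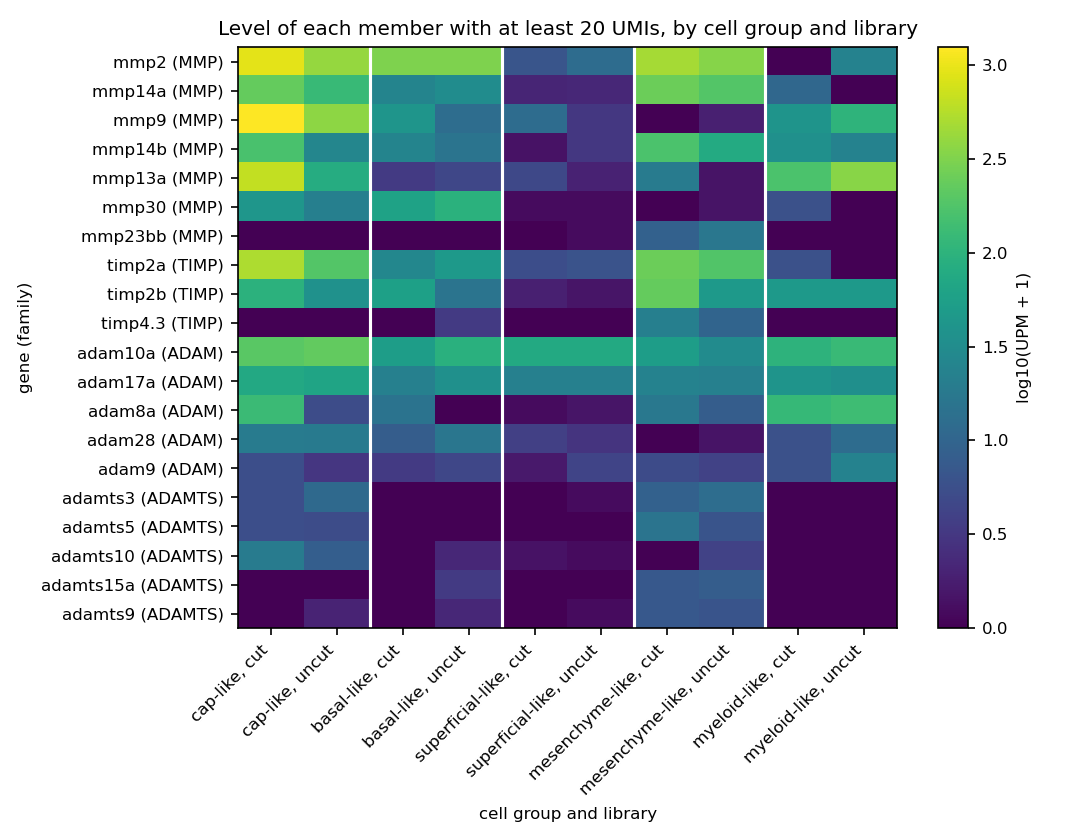
Level of the 20 genes with at least 20 UMIs (rows) in each cell group and library (columns, cut left of uncut), as log10(UPM + 1). mmp9 is brightest in cap-like columns and mmp13a in cap-like and myeloid-like columns, mmp2, mmp14a and timp2a in cap-like and mesenchyme-like columns, and adam10a and adam17a have signal in every column.

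Cap-like cells held most of mmp9, which encodes gelatinase B, and of mmp13a, which encodes an interstitial collagenase. Of 739 mmp9 UMIs 84.3% lay in cap-like cells, and of 318 mmp13a UMIs 68.9%. The mmp9 level was 1244 UPM in cut cap-like cells (272 UMIs), against 368 UPM in uncut cap-like cells (351 UMIs), a log2 ratio of 1.76 (1.52 to 1.99). The mmp13a level was 645 UPM in cut and 81.7 UPM in uncut cap-like cells, a log2 ratio of 2.98 (2.57 to 3.40). One uncut cell of 11151 UMIs carried 224 of the 351 mmp9 UMIs. Without that cell the uncut level of mmp9 was 135 UPM and the log2 ratio 3.21, and that of mmp13a was 65.7 UPM with a log2 ratio of 3.29.

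The number of cells with these transcripts pointed the same way. mmp9 was found in 16 of 28 cut and 32 of 90 uncut cap-like cells, with a median of 11.5 UMIs in the cut cells that had any and 3 in the uncut cells that had any. After each cell was thinned to 2000 UMIs, 59.3% of cut (38.8 to 77.6, 27 cells) and 16.7% of uncut (9.64 to 26.0, 90 cells) cap-like cells had an mmp9 UMI. For mmp13a the thinned shares were 48.1% of cut (28.7 to 68.1) and 5.56% of uncut (1.83 to 12.5) cap-like cells. Superficial epidermis-like cells, where most of these genes are scarce, had mmp9 in 0.588% and mmp13a in 0.294% of 680 thinned cells, at a median depth before thinning of 10604 UMIs, against 6012.5 in cut and 8855 in uncut cap-like cells. In mesenchyme-like cells mmp9 had 0 UMIs in the 91 cut cells, which allows up to 6.16 UPM, and 2 UMIs in the 257 uncut cells. The transcripts were often found in the same cells: 14 of the 18 cut cap-like cells with either gene had both, against 9 of 36 uncut ones.

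**Figure D3:**
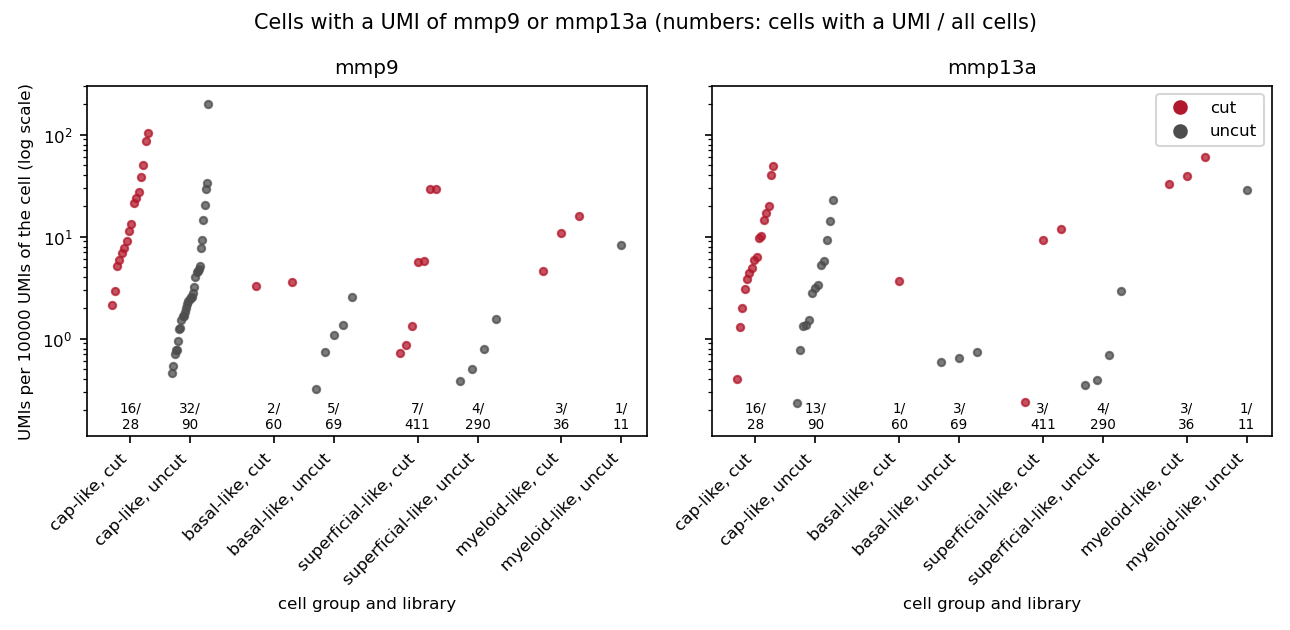
UMIs of mmp9 (left) and mmp13a (right) per 10000 UMIs of the cell, on a log axis, for each cell with at least 1 UMI, by cell group with cut (red) left of uncut (grey). The numbers give cells with a UMI over all cells (16 of 28 cut and 32 of 90 uncut cap-like cells for mmp9), and 1 uncut cap-like cell lies above every other cell for mmp9.

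Of the 12 genes with at least 20 UMIs in cap-like cells, 7 had a log2 ratio of at least 1 and 0 a ratio of at most -1. Among all 3701 genes with as many UMIs there, 13.3% were past this limit upward and 9.19% downward. The median log2 ratio of the 12 genes was 1.32, against 0.18 over all genes. The 7 were adam8a, mmp13a, mmp14b, mmp9, timp2a, timp2b and mmp2. The gene furthest past the limit was adam8a, which encodes a protease known from leukocytes in mammals. It had 128 UPM in cut cap-like cells (28 UMIs in 9 of 28 cells) and 4.19 UPM in uncut ones (4 UMIs in 1 of 90 cells), a log2 ratio of 4.93 (3.42 to 6.91). All 4 uncut UMIs came from the single cell with 224 mmp9 UMIs. Of 701 superficial epidermis-like cells 3 had an adam8a UMI.

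The cap-like cells of the libraries also differed in their markers. Summed cap markers reached 52398 UPM in cut and 19860 UPM in uncut cap-like cells (12 of 12 detected in each), 7306 and 5629 UPM without the apolipoprotein gene apoeb. apoeb, with a log2 ratio of 1.66, was the only one of 11 well-counted cap markers past the limit. Summed superficial epidermis markers were 10044 UPM in cut and 20565 UPM in uncut cap-like cells, and 8 of 11 were past the limit downward, as were 4 of 10 basal epidermis markers. Myeloid markers summed to 68.6 UPM in cut and 22.0 UPM in uncut cap-like cells (3 and 6 of 11 detected). Of these, il1b alone had 59.4 UPM in cut (13 UMIs) and 8.38 UPM in uncut cells (8 UMIs), whereas lyz had 0 and 8 UMIs. card9, lcp1, coro1a and mpx had at most 2 UMIs in either library, and spi1a, spi1b, mpeg1.1, mfap4 and cybb had 0 in both. Neuromast markers summed to 1225 UPM in cut and 193 UPM in uncut cap-like cells (4 and 3 of 6 detected). The part of these differences in the ratios of the metalloproteinase genes was not tested.

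Myeloid-like cells were the second place of mmp13a, with 20.1% of its UMIs, and all of them lay in 4 of 47 cells. The 3 cut cells had 15, 11 and 7 mmp13a UMIs at depths of 2487, 2783 and 2146 UMIs, and the uncut cell had 31 at 10926. The same 4 cells were those with mmp9 in this group (4, 3 and 1 UMIs in the cut cells and 9 in the uncut cell). They were also the 4 cells with mpx, the neutrophil myeloperoxidase (21, 20 and 6 UMIs in the cut cells and 39 in the uncut cell), and had 0 UMIs of the macrophage genes mpeg1.1 and mfap4. mpeg1.1 was found in 25 of 36 cut and 8 of 11 uncut myeloid-like cells. The link to mpx was noticed after the values were seen. Of the uncut group's lyz, which encodes a lysozyme, all 591 UMIs lay in that single uncut cell, against 3 UMIs over the cut cells.

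The myeloid-like mmp13a level was 163 UPM in cut and 351 UPM in uncut cells, a log2 ratio of -1.11 (-1.86 to -0.36) that rests on this 1 uncut cell. It was the only one of 3 well-counted genes past the limit, and none lay above it, where 21.8% of all genes with at least 20 UMIs were above 1 and 3.34% below -1. adam8a was found in 12 of the 47 myeloid-like cells (10 cut and 2 uncut), among them the 4 cells with mmp13a. Those 4 cells held 2, 9 and 3 of its 24 UMIs in cut cells and 8 of its 12 UMIs in uncut cells. The adam8a level was 118 UPM in cut and 136 UPM in uncut cells. In the cut library this level was close to the 128 UPM of cap-like cells, while uncut cap-like cells had 4.19 UPM. Of 2652 UMIs of superficial epidermis markers in cut myeloid-like cells, 2581 came from 1 cell, and without it the mmp13a ratio was -0.95.

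Superficial epidermis-like cells carried little of these genes. Of the 7 genes with at least 20 UMIs there, mmp9 and mmp13a were past the limit upward, where 3.86% of 7377 genes were, and mmp2 downward, where 2.53% were. mmp9 had 11.3 UPM in cut and 2.15 UPM in uncut cells, a log2 ratio of 2.39 (1.35 to 3.59), from 7 of 411 cut and 4 of 290 uncut cells. Most of this came from 1 of the 7 clusters, led by krt99, with 45 UMIs in its cut and 8 in its uncut cells. Of the 52 mmp9 UMIs in cut superficial epidermis-like cells, 2 cells held 22 each. The same 2 cells held 7 and 9 of the 17 mmp13a UMIs there, so both upward ratios rest largely on them. The 11 superficial epidermis-like cells with mmp9 had 7635 UPM of cap markers, against 900.1 UPM in the 690 cells without it, and 84851 UPM of superficial epidermis markers, against 149363. The part of this in the mmp9 ratio was not tested.

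mmp2, mmp14a and timp2a were abundant in cap-like and mesenchyme-like cells and scarce in superficial epidermis-like cells, and only mmp2 of the 3 was also abundant in basal epidermis-like cells. mmp2 encodes gelatinase A, and mmp14a and mmp14b encode membrane-type MMPs, which in mammals activate the MMP2 precursor on the cell surface with TIMP2 as a bridge. mmp2 reached 500.1 UPM (460.5 to 542) in cap-like, 366 (343 to 389) in mesenchyme-like and 312 (282 to 345) in basal epidermis-like cells. Mesenchyme-like and basal epidermis-like cells did not differ beyond these intervals, and superficial epidermis-like cells had 8.42 (6.61 to 10.6). mmp14a stood at 197 UPM (180.3 to 214) in mesenchyme-like and 142 (122 to 166) in cap-like cells, and timp2a at 189.9 (174 to 207) and 244 (216 to 274). Both were at 28.5 and 38.8 UPM in basal epidermis-like cells, and at 1.14 and 4.78 UPM in superficial epidermis-like cells. In myeloid-like cells mmp2, mmp14a and timp2a had 2, 2 and 1 UMIs.

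Over the 21 clusters the log2 level (UPM + 10) of mmp14a followed that of mmp14b (Pearson r of 0.95) and of timp2a (0.95), and mmp9 followed mmp13a (0.82) but hardly mmp14a (0.12). These values describe clusters that share both libraries and differ in depth. Superficial epidermis-like cells, 7 of these clusters, had 1.14, 1.25 and 4.78 UPM of mmp14a, mmp14b and timp2a, below the added 10. mmp9 and mmp13a were below it too, at 6.94 and 2.39 UPM in superficial epidermis-like and 0.73 and 3.67 UPM in mesenchyme-like cells. In mesenchyme-like cells 161 of 285 cells with mmp14a or timp2a had both, and 199 of 306 with mmp2 or timp2a had both. In cut cap-like cells each of the 17 cells with mmp14a also had timp2a, and in uncut cap-like cells 41 of 52 did. timp2a by itself was found in 24 of 28 cut and 65 of 90 uncut cap-like cells. Among the 348 mesenchyme-like cells 226 had timp2a, 220 mmp14a and 279 mmp2. Whether these genes share cells more often than such counts alone would give was not tested.

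All of these genes had a higher level in cut than in uncut cap-like cells. mmp2 had 933 UPM in cut and 401 UPM in uncut cells (log2 1.22, 0.97 to 1.47). timp2a had 512 UPM in cut and 182 UPM in uncut cells (1.49, 1.14 to 1.84). mmp14b, the second membrane-type gene, had 160.01 UPM in cut and 25.1 UPM in uncut cells (2.67, 1.88 to 3.48), in 14 of 28 and 14 of 90 cells, where 10 of 701 superficial epidermis-like cells had it. mmp14a had 233 UPM in cut and 121 UPM in uncut cells, a log2 ratio of 0.94 (0.44 to 1.43) just under the limit. With the 24 genes kept in the clustering, 36 cells were called cap-like and the mmp9 ratio was 0.71, and with coarser clusters of 179 cells the mmp2 ratio was 0.62.

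In mesenchyme-like cells the same genes differed less between the libraries, and timp2b most. Of the 11 genes with at least 20 UMIs, timp2b, timp4.3, adam8a and mmp14b were past the limit upward, where 8.96% of 5836 genes were, and none downward, where 6.03% were. The median log2 ratio of the 11 was 0.52, against 0.22 over all genes. timp2b, which encodes a second TIMP2, had 228 UPM in cut cells (111 UMIs in 26 of 91 cells) and 46.9 UPM in uncut cells (105 UMIs in 66 of 257 cells), a log2 ratio of 2.28 (1.88 to 2.68). In the cut library 3 cells held 26, 19 and 14 of its UMIs, and the largest uncut cell held 9. Without the largest cell of each library the ratio was 2.03, and without the shallow cluster 2.61.

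timp2b was higher in cut cells in each of the 5 clusters where it had at least 20 UMIs. The log2 ratios were 1.73, 2.23 and 2.55 in the mesenchyme-like clusters, 1.43 in the cap-like cluster and 1.77 in the deeper basal epidermis-like cluster. By contrast its paralogue timp2a had 252 UPM in cut and 176 UPM in uncut mesenchyme-like cells (log2 0.52, 0.21 to 0.81). mmp2 had 480.3 UPM in cut and 341 UPM in uncut mesenchyme-like cells (0.50, 0.28 to 0.71), and mmp14a 250.4 UPM in cut and 185 UPM in uncut ones (0.44, 0.13 to 0.73). mmp14b had 162 UPM in cut and 77.2 UPM in uncut cells (1.07, 0.67 to 1.46), and 0.86 without the largest cell of each library. Its ratio was 1.73 in the cluster led by ecrg4a and hapln1a, and 0.39 in the cluster led by tnn and apln. timp4.3 (10 cut and 20 uncut UMIs) and adam8a (8 and 16) had a log2 ratio of 1.20 each, with intervals that include 0 (-0.06 to 2.36 and -0.23 to 2.51). Summed mesenchyme markers were 3327 UPM in cut and 2709 UPM in uncut mesenchyme-like cells, and 1 of 12 was past the limit upward. Summed pigment markers in mesenchyme-like cells were 2050.4 UPM in cut and 60.7 UPM in uncut cells (4 of 7 detected in each), and their part in these ratios was not tested.

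**Figure D4:**
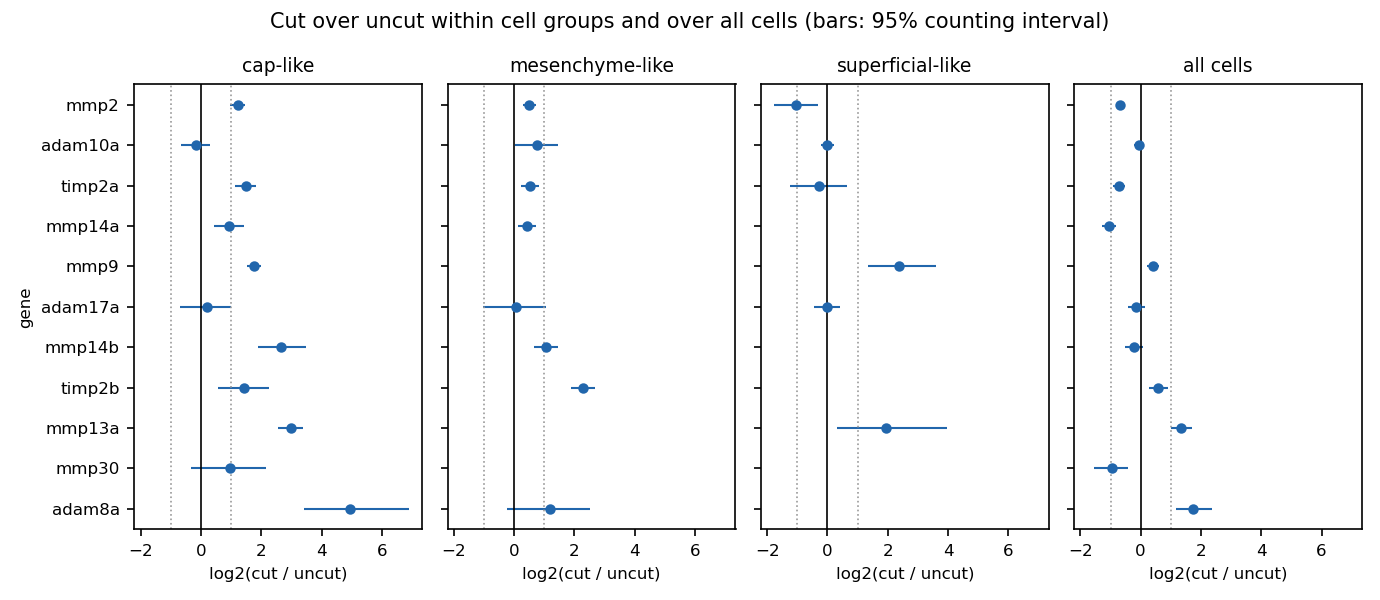
log2 ratio of cut over uncut level with 95% counting intervals (horizontal axis) for the 11 genes with at least 100 UMIs, in cap-like, mesenchyme-like, superficial epidermis-like and all cells, shown where a gene has at least 20 UMIs, with dotted lines at -1 and 1. In cap-like cells 10 of 11 points lie above 0, whereas over all cells mmp2, timp2a, mmp14a and mmp30 lie below 0 with their whole interval.

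mmp30 had most of its UMIs in basal epidermis-like cells, a placement that depends on the clustering. Of its 148 UMIs 70.3% lay there, 102 of them in the deeper of the 2 clusters, and 19.6% in cap-like cells. The level over both libraries was 82.4 UPM in basal epidermis-like and 24.7 UPM in cap-like cells, but with coarser clusters (Leiden resolution 0.5) it was 7.99 and 58.3 UPM. Its level was 59.0 UPM in cut and 94.3 UPM in uncut basal epidermis-like cells, a log2 ratio of -0.68 (-1.39 to -0.01). In the deeper cluster alone the mmp30 ratio was -0.51, with an interval that includes 0 (-1.24 to 0.16). Of 9 genes with at least 20 UMIs in this group, timp2b and mmp9 were past the limit upward, where 11.6% of 3266 genes were, and none downward, where 6.09% were. timp2b had 56.6 UPM in cut and 14.3 UPM in uncut cells (1.98, 0.93 to 3.12). mmp9 had 17 UMIs in cut cells, 12 of them in 1 cell, and 10 in uncut cells, and its log2 ratio of 1.75 was 0.82 without the largest cell of each library. The mmp2 level was 316 UPM in cut and 310.3 UPM in uncut cells (log2 0.03, -0.29 to 0.33). Its 2 clusters differed, with 339 UPM in cut and 345 UPM in uncut cells of the deeper one (-0.03, -0.36 to 0.30), and 238 and 32.5 UPM in the shallow one (2.88, 1.15 to 5.26, from 23 cut and 3 uncut UMIs).

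The sheddases adam10a and adam17a were found in cap-like, basal, superficial, mesenchyme-like and myeloid-like cells alike. In erythrocyte-like cells, which held 109870 UMIs in all, adam17a had 0 UMIs. At that depth a 0 also allows the adam17a levels of superficial epidermis-like and mesenchyme-like cells. ADAM10 releases Notch and E-cadherin fragments in mammals, and ADAM17 releases tumour necrosis factor. adam10a had 221 UPM (195 to 249) in cap-like, 106 (72.3 to 151) in myeloid-like, 77.7 (63.0 to 94.6) in basal epidermis-like, 74.6 (69.0 to 80.5) in superficial epidermis-like and 34.1 (27.5 to 41.8) in mesenchyme-like cells. The myeloid-like, basal and superficial levels overlapped between neighbours in this order. adam17a was highest in cap-like cells too (65.6 UPM, 51.8 to 82.0), and each lower level, from 37.8 UPM in myeloid-like to 21.3 UPM in superficial epidermis-like cells, overlapped with the next higher one. Neither gene was past the limit in any named group where it had at least 20 UMIs. In superficial epidermis-like cells adam10a had 74.5 UPM in cut and 74.7 UPM in uncut cells (log2 0.00, -0.23 to 0.22), and adam17a 21.2 and 21.3 UPM (0.00, -0.43 to 0.43). In cap-like cells adam10a had 201 UPM in cut and 225 UPM in uncut cells (-0.16, -0.66 to 0.31). In basal epidermis-like cells adam10a had 51.9 UPM in cut and 90.7 UPM in uncut cells (-0.81, -1.56 to -0.11), and in mesenchyme-like cells 51.3 and 30.4 UPM (0.76, 0.03 to 1.44). In the deeper basal epidermis-like cluster alone the adam10a ratio was -0.65, with an interval that includes 0 (-1.42 to 0.06).

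Of the 9 genes with 20 to 99 UMIs, 6 had at least 50% of their UMIs in mesenchyme-like cells. These were mmp23bb (40 of 44 UMIs), timp4.3 (30 of 38), adamts3 (30 of 49), adamts15a (19 of 21), adamts5 (19 of 28) and adamts9 (15 of 21). Mesenchyme-like cells were 21.2% of all cells. The share of all genes with 20 to 99 UMIs that are placed in this way was not computed, so the count of 6 has no background. In mammals ADAMTS5, ADAMTS9 and ADAMTS15 cut large proteoglycans such as versican and aggrecan, and ADAMTS3 trims procollagen. The 2 with at least 20 UMIs in mesenchyme-like cells and no ratio past the limit had wide intervals that include 0: adamts3 had 8.21 UPM in cut and 11.6 UPM in uncut cells (log2 -0.50, -2.48 to 1.03), and mmp23bb 8.21 and 16.1 UPM (-0.97, -2.92 to 0.51). adam28 instead lay in the epithelia, with 21 UMIs in cap-like, 16 in basal and 21 in superficial epidermis-like cells of 65 in all. This gene was singled out after its values were seen. Its cap-like level was 18.3 UPM in cut and 17.8 UPM in uncut cells (log2 0.04, -1.99 to 1.66). adam9 and adamts10 had no group with 50% of their UMIs. The RefSeq gene order (assembly GRCz12tu) has timp4.3 next to timp4.2, which had 0 UMIs. Reads of near copies can be divided between them or lost in counting. The sequences of these genes were not compared, and whether this happened here was not tested.

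The 3 further groups had few of these genes at 20 UMIs or more. In cycling-like cells (17 cut and 38 uncut) mmp2 was the only one of 6 past the limit, with 191 UPM in cut and 88.3 UPM in uncut cells (log2 1.11, 0.53 to 1.68), where 10.1% of 3956 genes were past it upward and 11.8% downward. In neuromast-like cells (19 and 35) mmp14a, with 3 UMIs in cut and 18 in uncut cells, was past it downward (-1.15, -3.56 to 0.63), where 5.85% of 2649 genes were past it upward and 10.0% downward. In erythrocyte-like cells (13 and 10) mmp2 had 13 UMIs in cut cells, all in 1 cell, and 10 in uncut cells (log2 0.16), where 15% of 313 genes were past the limit upward and 15.7% downward.

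Over all cells together, 16 of the 20 genes with at least 20 UMIs had a log2 ratio below 0, with a median of -0.54, against 0.03 over all genes. mmp13a and adam8a were past the limit upward, where 3.34% of 9915 genes were. adamts3, mmp23bb, adamts15a, adamts9 and mmp14a were past it downward, where 9.71% were. mmp2 had 93.6 UPM in all cut and 150.4 UPM in all uncut cells (log2 -0.69, -0.82 to -0.55), and mmp14a 29.9 and 61.3 UPM (-1.04, -1.27 to -0.81). The groups that carry these genes took different shares of the libraries. Cap-like cells were 3.67% of cut and 10.3% of uncut cells, mesenchyme-like cells 11.9% and 29.3%, and superficial epidermis-like cells 53.9% and 33.0%. With every cluster given the same weight in both libraries, mmp2 had 161 UPM in the cut and 109 UPM in the uncut library (0.56), mmp14a 55.3 and 42.7 UPM (0.37), timp2a 73.8 and 48.5 UPM (0.61) and timp2b 42.9 and 12.8 UPM (1.75). On this scale 14 of the 20 genes had a ratio above 0, with a median of 0.47. The same weighting was not computed over all genes, so this count and median have no background to be read against.

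Of 65 genes that act on or with these proteases, in 6 lists, 51 were in the gene list. In the plasminogen system, a further set of matrix proteases and their inhibitors, serpine2, which encodes a serine protease inhibitor, was past the limit upward in cap-like cells, with 169 UPM in cut and 69.1 UPM in uncut cells (log2 1.29, 0.67 to 1.89), where 13.3% of all genes were. Of 5 membrane regulators in cap-like cells, tspan33a, a tetraspanin partner of ADAM10, was past it downward, where 9.19% of all genes were. It had 96.0 UPM in cut and 206 UPM in uncut cells (-1.10). Of 4 shed surface proteins in basal epidermis-like cells, hbegfa, an EGF receptor ligand freed by ADAM cleavage, was past it upward. There 11.6% of all genes were past it upward, and hbegfa had 986 UPM in cut and 437 UPM in uncut cells (1.17, 0.97 to 1.38). The shallow cluster of this group had 42 cut and 26 uncut cells and the deeper one 18 and 43. The hbegfa ratio was not computed for each cluster apart.

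Among 11 matrix substrates in cap-like cells, 2 were past the limit upward and 2 downward, where 13.3% and 9.19% of all genes were. Those downward were the collagen I genes col1a1b (306 UPM in cut and 1503 UPM in uncut cells, log2 -2.29) and col1a2 (347 and 1379 UPM, -1.99). Basal epidermis-like cells had 1 of 8 upward, fn1b for fibronectin (1186 UPM in cut and 417 UPM in uncut cells, 1.51), and 4 downward, col1a1b (-1.65) and col1a2 (-1.47) furthest. Over all genes there, 11.6% were past the limit upward and 6.09% downward. The ratios of fn1b and the collagen genes in this group were not computed for its shallow and deeper clusters apart. Superficial epidermis-like cells had 5 of 5 downward, where 2.53% of all genes were, and col1a1a (119 and 728 UPM, -2.62) lay furthest. The 2 well-counted mesenchyme markers in these cells were past the limit downward too. In mesenchyme-like cells 2 of 10 were upward and 0 downward, where 8.96% and 6.03% of all genes were. There tnc, for tenascin C, had 273 UPM in cut and 130.4 UPM in uncut cells (1.07, 0.76 to 1.37). In myeloid-like cells the astacin protease gene npsn, named after its values were seen, had 10 UMIs in cut cells and 79 in uncut cells, all 79 in the uncut cell that held mmp13a.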

How the data were processed

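Fin folds were dissociated and taken through Chromium 3' v3.1 library preparation. The authors ran Cell Ranger 3.1.0 on danRer11, per the labels, and deposited UMI counts per gene and cell, as a matrix for each library and an aggregated one. In the aggregated one 13.2% of the cut library's entries had been lowered, and its median fell from 7699.5 to 7212 UMIs per cell. The uncut median stayed at 10476.5, so the medians were not brought closer. The aggregated counts were used, with all 1640 cells and no doublet caller. Cells were clustered without the 24 genes (10 principal components, 15 neighbours, Leiden resolution 1, seed 1; leidenalg 0.10.2, scikit-learn 1.9.0) and called by 122 marker genes in 14 classes, of which 6 were not listed. The limits for calling a cluster (at least 3 markers raised by a log2 of 0.5 and found in 25% of its cells) were set after the data were seen. Exact Poisson, Clopper-Pearson and binomial intervals were computed in scipy 1.17.1. Ratios were given for genes with at least 20 UMIs in a group, and the limit was a log2 of 1. Cells were thinned to 2000 UMIs for shares. Genes with at least 100 UMIs were described in full, and those with 20 to 99 where 50% of their UMIs lay in a group or a ratio passed the limit. The genes and lists were chosen with earlier results of these data known. The code was tested on simulated data. Alternatives are given with the closing observations. The result for 1 related gene is not reported here.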

Additional observations from a re-analysis of the deposited data

Results flagged for a closer look

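mmp2, which encodes gelatinase A, had a log2 ratio of cut over uncut of 1.22 in apical epithelial cap-like cells but -1.03 in superficial epidermis-like cells. The superficial value rests on 26 UMIs in cut cells, 16 of them in 1 cell, and 48 in uncut cells, and was -2.10 without the largest cell of each library. By cluster it was -1.88 in the one led by krt99 and 0.88 in the one led by trim35-27. The difference between the groups was not tested.

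mmp13a, which encodes a collagenase, had a log2 ratio of 2.98 in cap-like and 1.94 in superficial epidermis-like cells but -1.11 in myeloid-like cells. The myeloid-like value rests on 33 UMIs in 3 cut cells and 31 UMIs in 1 uncut cell, and the superficial value on 17 UMIs in 3 cut and 4 UMIs in 4 uncut cells. With 1 library in each condition these differences were not tested.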

How the results depend on the processing

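In cap-like cells 5 to 9 genes were past the limit upward over the 12 alternatives, and of the 7 reported 5 to 7 stayed past it. The count past the limit upward in basal epidermis-like cells, 2 as reported, was 1 with Leiden resolution 0.5 (1 gene had enough UMIs there, and it was neither of the 2), 1 without the 2% of cells with most UMIs, without the largest cell of each gene and as a mean over cells, and 0 with a minimum of 50 UMIs. It was 3 with the 24 genes kept in the clustering, with resolution 2 and with no minimum above 3 UMIs. In superficial epidermis-like cells it was 1 in place of 2 without the largest cells and with a minimum of 50 UMIs, and 3 as a mean over cells. In mesenchyme-like cells it was 2 in place of 4 with resolution 0.5 and with a minimum of 50 UMIs. There it was 3 in cells with at least 4000 UMIs and without the shallow cluster. It was 1 without the largest cells and as a mean over cells, and 7 with no minimum above 3 UMIs. In myeloid-like cells it was 1 in place of 0 as a mean over cells. Over all cells, with equal cluster weights, 5 genes were past it upward in place of 2 and 0 downward in place of 5.

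Of the ratios past the limit, 4 of 24 turned sign: timp4.3 in mesenchyme-like cells with resolution 0.5 (-0.72), adam8a there as a mean over cells (-0.0015), mmp13a in myeloid-like cells as a mean over cells (0.51), and mmp14a over all cells with equal cluster weights (0.37). Of the 38 ratios within the limit, 20 turned sign under some alternative, mmp2 (0.56) and timp2a (0.61) over all cells with equal cluster weights among them. Of 318 alternative values of levels 109 moved beyond the counting interval. The cap-like ratio ranged over the alternatives between 0.71 and 3.21 for mmp9, 0.62 and 2.004 for mmp2, 2.44 and 3.46 for mmp13a, and 0.84 and 1.68 for timp2a. K-means gave no basal or superficial epidermis-like group, so those values are missing. The causes were not tested. The alternatives without a shallow cluster, without the uncut cell with most mmp9 and without the cut myeloid-like cell with most superficial epidermis markers were added after the data were seen. No paired analysis was possible because each condition has 1 library, and depth limits all genes with few UMIs.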

Other observations

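A cluster of 17 cells (9 cut and 8 uncut) was left without a name and was led by rab36 and foxj1a, a regulator of motile cilia. Its timp2a level was 139 UPM in cut cells (6 UMIs) and 641 UPM in uncut cells (35 UMIs), a log2 ratio of -2.21 (-3.75 to -0.94). Ratios of the named groups were given only with at least 10 cells in each library, which this cluster did not have. The share of all genes past the limit was not computed for it. One uncut cell of 16245 UMIs held 13 of the 35 timp2a UMIs and also 14 timp2b UMIs. The summed TIMP level of the cluster over both libraries was 582 UPM, and its ADAM and ADAMTS levels were 276 and 102 UPM.

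Cap-like cells with mmp9 (48 cells) had 34540 UPM of cap markers, against 19443 UPM in cap-like cells without it (70 cells). Both libraries were pooled here, and mmp9 was found in 16 of 28 cut and 32 of 90 uncut cap-like cells. One cap marker, apoeb, alone had 45092 UPM in cut and 14230 UPM in uncut cap-like cells. Cells with and without mmp9 were not compared within each library. The share of mmp9 and that of the library in this difference were therefore not told apart.

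After thinning to 2000 UMIs, the 24 genes together gave a mean of 10.22 UMIs in cut cap-like cells and 3.53 in uncut ones, against 3.86 in cut and 2.42 in uncut mesenchyme-like cells.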
